A study of Mus musculus with 40 samples.

Results

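Cacng2, Cacng3, Cacng4, Cacng5, Cacng7 and Cacng8, genes of the calcium channel gamma subunit family, encode the transmembrane AMPA receptor regulatory proteins (TARPs). They were taken by symbol from the deposited count table and make up 6 of its 26792 gene symbols. All 6 passed the filter on low counts in both fractions. Cacng4 was selected on its low CPM in the ORX-HFD pull-downs relative to sham-HFD, and the other 5 as its relatives. Values of Cacng4 in any contrast that uses those pull-downs are therefore a description with no test. The same holds for the other members where ORX-HFD pull-downs are set against sham pull-downs. The difference between the fractions played no part in the choice of the other 5 genes and was tested for them.

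The libraries came from microdissected hypothalami of mice with the Aldh1l1-eGFP-L10a transgene, in which the Aldh1l1 promoter drives a green fluorescent ribosomal protein in astrocytes. In translating ribosome affinity purification, the tagged ribosomes and their messages are pulled down (IP in the labels), and the rest of the lysate stays in the supernatant (SN). Each of the 3 groups carried the transgene and was fed for 4 weeks: orchiectomised mice on high-fat diet (ORX-HFD, also labelled GDX, 7 samples), sham-operated mice on high-fat diet (sham-HFD, 6 samples) and sham-operated mice on chow (sham-chow, 7 samples). Each sample number gave a pull-down and a supernatant library, 40 in all, and orchiectomy was compared on the high-fat diet alone. Whether a number stands for 1 mouse is not in the labels, so p-values reflect the scatter among libraries, part of which may be technical.

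AMPA receptors are tetramers of the subunits GluA1 to GluA4 and carry fast excitatory transmission. TARPs bind them, carry them to the surface, slow their closing and change their pharmacology. Type I TARPs (Cacng2, Cacng3, Cacng4, Cacng8) end in a short stretch that docks on PDZ scaffold proteins such as PSD-95, while the type II TARPs (Cacng5, Cacng7) have other ends and weaker effects on trafficking. Neurons are the best studied users of these proteins, and astrocytes and other glia also make AMPA receptors.

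The coding ends show the split between both classes. Below are the last 30 coding bases of each gene's principal transcript with its stop codon, 5′ to 3′ on the coding strand (GENCODE M21, GRCm38), with the 12 bases before the stop in capitals.
Cacng2 (chromosome 15): acagccaaccgccggACCACGCCCGTAtga
Cacng3 (chromosome 7): ccggccaacagacgtACCACGCCTGTCtga
Cacng4 (chromosome 11): atgctgaaccggcggACGACTCCCGTGtga
Cacng8 (chromosome 7): acgctcaacaggaaaACCACGCCCGTGtag
Cacng5 (chromosome 11): tatgaccagatgtcaTCATCTCCCTGCtga
Cacng7 (chromosome 7): catctccacatctccACTTCGCCGTGCtga
The letters that the 4 type I genes share there spell ACNACNCCNGTN, read on the coding strand only and directly before the stop. Neither type II gene had it. Among 21674 genes with an annotated coding end it occurred in 4, or 0.0185%, which are the type I TARPs themselves. The letters were taken from these 4 genes, so their own matches were fixed in advance.

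In the genome 4 of the 6 genes lie in pairs, each pair with a gamma subunit gene from outside the 6 beside it. Cacng1 lies 15834 bases from Cacng4, and Cacng6 lies 8546 bases from Cacng8. Cacng4 (ENSMUSG00000020723.3) occupies chr11:107732357-107794557 on the minus strand, 80047 bases from its type II relative Cacng5 (chr11:107874605-107915055, minus strand). Cacng7 (chr7:3332955-3368221) and Cacng8 (chr7:3390683-3415648) are 22461 bases apart on the plus strand, and Cacng3 (chr7:122670492-122769393, plus strand) stands far from them. Cacng2 lies alone at chr15:77991748-78120028 on the minus strand. The coding sequences were 59.7% (Cacng3 and Cacng5) to 72.8% (Cacng2 and Cacng3) identical over their aligned bases. In the last 600 bases of the transcripts, where 3′ tags fall, the longest identical run between any 2 of the 6 genes was 13 bases, and no member had a fractional estimated count in any library. Non-coding or antisense genes overlap Cacng2, Cacng3, Cacng4, Cacng7 and Cacng8, and for the counting no strand setting is given in the sources used here.

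Astrocyte markers were higher in the pull-downs and neuron markers in the supernatants. The summed level of 8 astrocyte markers had medians of 29092 CPM in ORX-HFD, 28633 CPM in sham-HFD and 27384 CPM in sham-chow pull-downs, against 1211, 868 and 773 CPM in the supernatants of the same groups. The 8 neuron markers summed to medians of 333, 305 and 302 CPM in the pull-downs, against 4446, 4225 and 4554 CPM in the supernatants. Vascular messages were higher in the pull-downs as well. By edgeR 5 of 5 endothelial markers were called higher there (median log2 fold change 2.67). Of 5 mural markers 4 were called higher and 1 lower (median 1.05), where 43.1% of all genes were called higher. All 8 oligodendrocyte and 6 microglia markers were called lower, where 43.7% of all genes were. Library totals were 7714834 to 20792175 counts in pull-downs and 8739276 to 12931869 counts in supernatants. Mitochondrially encoded genes took 0.643% to 1.63% of pull-down counts and 19.2% to 27.8% of supernatant counts. Gm42418, which overlaps ribosomal RNA, exceeded 10% of counts in 4 pull-downs (samples 1, 8, 11 and 22).

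Cacng4, which encodes TARP γ-4, had the highest level of the 6 TARP messages in the astrocyte pull-downs. CPM here are tag counts brought to a common library size by TMM scaling over all 40 libraries. Since the kit reads each message once, close to its 3′ end, levels were compared between genes without dividing by length. Whether tags of all 6 genes were counted equally well was not tested. The annotated Cacng8 transcript ends only 43 bases after its stop codon, so its share is the least certain. Cacng4 made up 57.3% ± 5.51 of the summed CPM of the 6 genes in the pull-downs and 16.7% ± 1.11 in the supernatants (SD, n = 20 each). Cacng2, which encodes stargazin and is disrupted in the ataxic and epileptic stargazer mouse, made up 20.0% ± 5.35 in pull-downs and 69.6% ± 3.37 in supernatants. The lowest share of Cacng4 in a pull-down, 44.1%, lay above its highest share in a supernatant, 18.1%. The other 4 genes averaged 2.5% to 7.93% each in the pull-downs, and 0.886% (Cacng8) to 6.77% (Cacng3) in the supernatants.

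**Figure D1:**
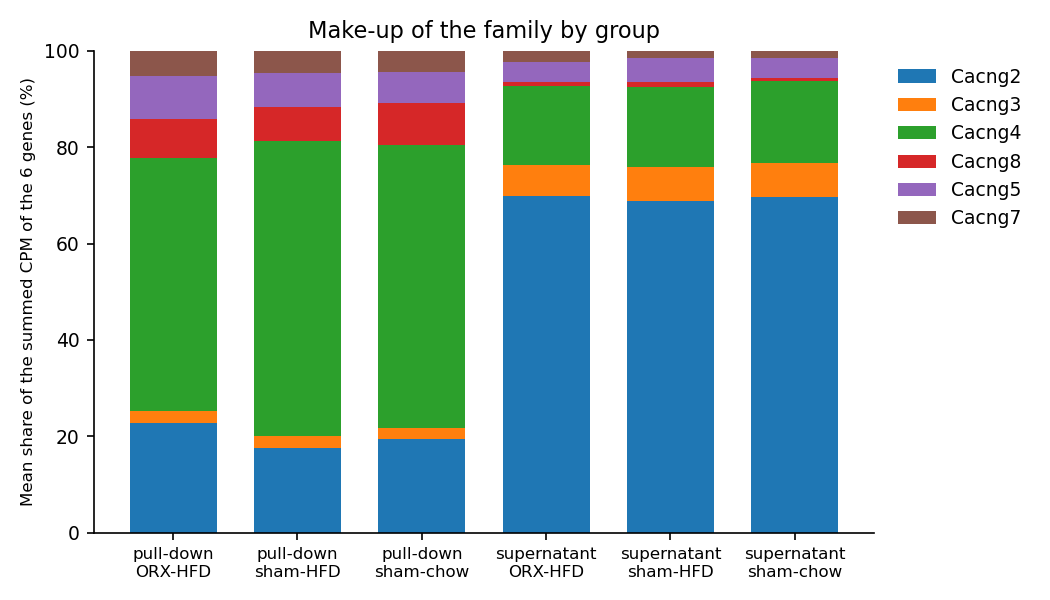
Mean share of each gene in the summed CPM of the 6 TARP genes (percent, stacked to 100) in the 6 groups of 7, 6 and 7 libraries per fraction. Cacng4 fills the largest block in the pull-downs (52.5%, 61.3% and 58.7% in ORX-HFD, sham-HFD and sham-chow) and Cacng2 in the supernatants (70.0%, 68.9% and 69.7%).

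Between the fractions, 5 of the 6 genes were lower in the pull-down and Cacng8 was higher, though not when totals without mitochondrial genes and Gm42418 set the scale. By edgeR's quasi-likelihood test on all 40 libraries each of the 5 genes other than Cacng4 passed an adjusted p under 0.05, where 86.8% of all 15629 genes tested did so, 43.7% lower and 43.1% higher. Passing the test is thus common here, and the sizes separate the members. Cacng4, chosen partly on its pull-down values, was tested in sham-chow alone. The median log2 fold change of the 6 genes was -1.65, against -0.01 over all genes tested. Samples, not cells, were measured, and fewer cells of a type cannot be told apart from less RNA per cell.

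Cacng2 and Cacng3 were the members with the deepest deficit. Cacng2 had 6.40 to 24.4 CPM in the 20 pull-downs, against 241 to 379 CPM in the 20 supernatants, a log2 fold change of -4.55 ± 0.13 (SE) or 23.4-fold lower (edgeR adjusted p = 3.2e-29). Cacng3, which encodes TARP γ-3, had 0.943 to 3.07 CPM in pull-downs, against 22.3 to 41.2 CPM in supernatants (log2 fold change -4.18 ± 0.11, 18.2-fold lower, edgeR adjusted p = 2.5e-31). Both ranges are wide apart. Of all genes tested, 0.499% had a lower fold change than Cacng2 and 1.11% a lower one than Cacng3, and a significant 8-fold or larger deficit occurred in 7.79% of genes. For comparison, the 8 neuron markers had a median of -3.78 on the same scale. Of these markers 8 of 8 were called lower, where 43.7% of all genes were.

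The type II genes had smaller deficits. Cacng5, known from Bergmann glia of the cerebellum, had 2.18 to 10.3 CPM in pull-downs, against 15.9 to 24.8 CPM in supernatants (log2 fold change -1.98 ± 0.12, 3.95-fold lower, edgeR adjusted p = 2.7e-19). The fractions did not overlap. Cacng7 had 1.60 to 5.99 CPM in pull-downs and 3.34 to 26.7 CPM in supernatants (log2 fold change -1.31 ± 0.18, 2.48-fold lower, edgeR adjusted p = 2.2e-08). Its fractions overlapped, with 14 of 20 pull-downs below every supernatant. The highest supernatant value belonged to ORX-HFD sample 2, and without that sample the log2 fold change was -1.15.

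Cacng4 was 1.98-fold lower in the pull-down. It had 26.5 to 48.7 CPM in the 20 pull-downs, against 61.3 to 88.0 CPM in the 20 supernatants (log2 fold change -0.99 ± 0.05, given without a test), and the ranges did not overlap. In sham-chow, whose libraries had no part in the choice of Cacng4, the difference was -0.94 ± 0.09 (edgeR adjusted p = 4.9e-12). Cacng2, Cacng3 and Cacng5 also had every pull-down below every supernatant, as 18.9% of genes did, and from this share nothing is read for Cacng4.

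Cacng8, which encodes TARP γ-8, best known from hippocampus, was the member on the other side of 0. It had 2.17 to 7.54 CPM in pull-downs and 2.41 to 6.04 CPM in supernatants, a log2 fold change of 0.38 ± 0.11 (edgeR adjusted p = 0.0016), with overlapping ranges and 4 of 20 pull-downs above every supernatant. Within 1 treatment, where 76.9% of genes passed in ORX-HFD, 75.8% in sham-HFD and 76% in sham-chow, the Cacng8 difference passed in sham-chow (0.69 ± 0.18, edgeR adjusted p = 0.00087) and not in ORX-HFD (0.33 ± 0.18, edgeR adjusted p = 0.10) or sham-HFD (0.11 ± 0.20, edgeR adjusted p = 0.61). The sham-HFD and sham-chow values did not differ detectably in the interaction test (edgeR adjusted p = 0.97), and the ORX-HFD value was not tested against either. With library totals taken without mitochondrial genes and Gm42418 as the scale, it was 0.0028 (edgeR adjusted p = 0.98). That scale moved the median of all genes to -0.37 and the higher share of called genes to 36.8%, against 49.7% under TMM. Relative to those medians, Cacng8 stayed above the middle gene under both scales. The annotated Cacng8 transcript ends 43 bases after its stop codon, against 547 to 3401 bases for the other members, in GENCODE M21. For the counting no annotation is given in the sources used here, and whether tags past that end were missed was not tested.

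**Figure D2:**
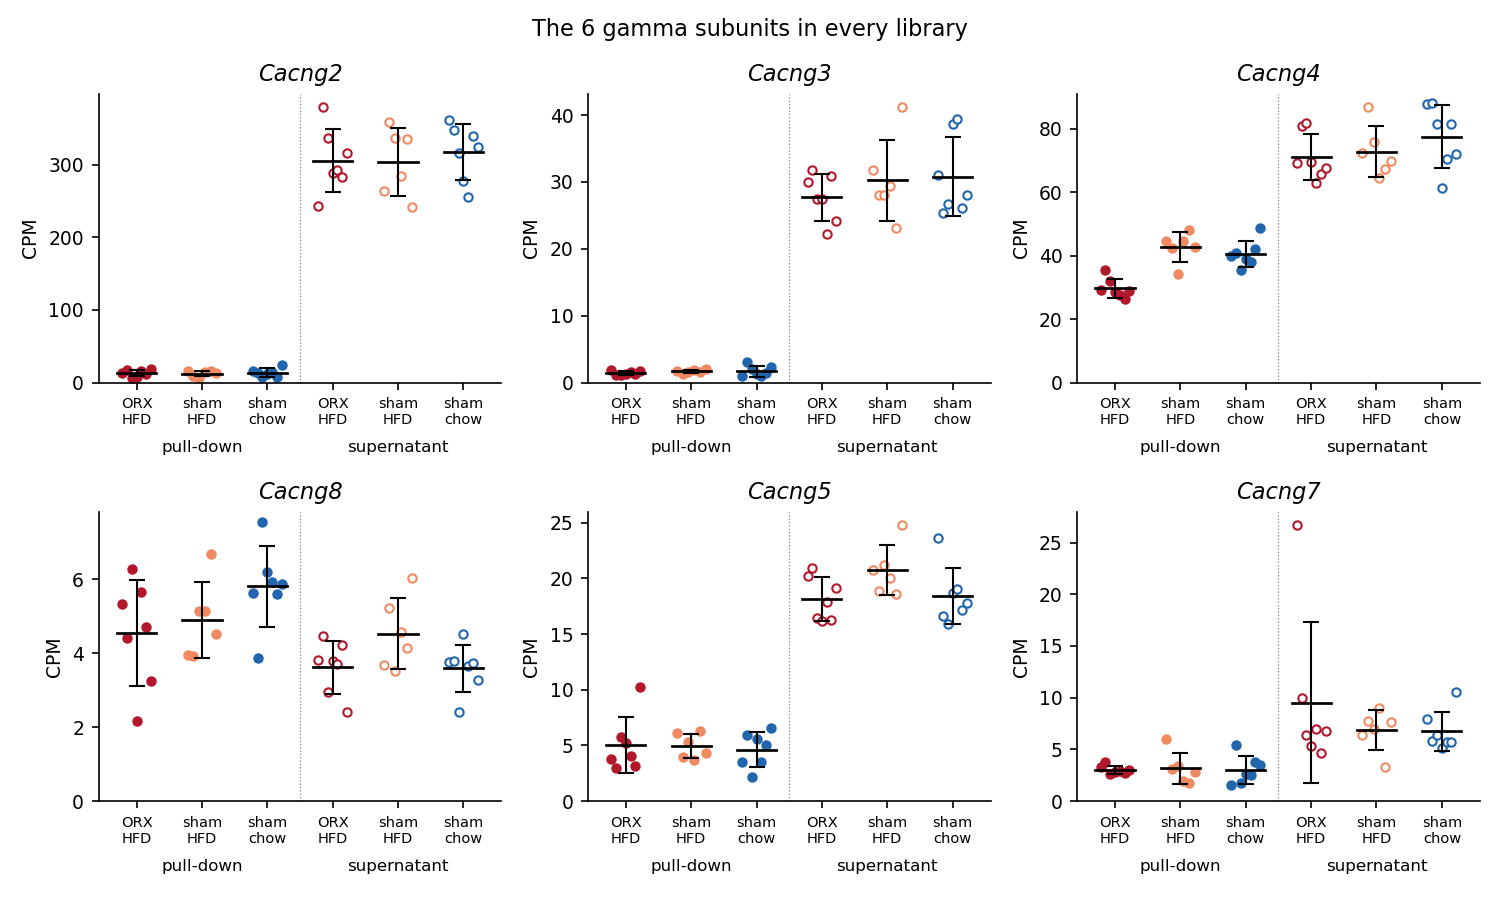
CPM of each TARP gene in every library (points; filled for pull-down, open for supernatant), with mean and SD per group (n = 7 ORX-HFD, 6 sham-HFD, 7 sham-chow); each panel has its own axis from 0. Cacng2, Cacng3, Cacng4 and Cacng5 have no pull-down as high as any supernatant, Cacng8 overlaps throughout, and 1 ORX-HFD supernatant of Cacng7 reads 26.7 CPM.

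Cacng4 was singled out for its ORX-HFD values in the pull-down, which are therefore given sample by sample. The ORX-HFD pull-downs had 29.2, 35.4, 31.9, 28.6, 27.7, 26.5 and 28.8 CPM (samples 2, 6, 10, 11, 14, 17 and 22). The sham-HFD pull-downs had 44.6, 42.5, 34.2, 44.7, 48.1 and 42.7 CPM (samples 1, 9, 13, 16, 18 and 20). The sham-chow pull-downs had 39.7, 40.8, 35.6, 38.9, 38.0, 42.0 and 48.7 CPM (samples 7, 8, 12, 15, 19, 21 and 23). Of the 7 castrated samples 6 lay below all 13 sham samples. The remaining one, sample 6 at 35.4 CPM, lay above sham-HFD sample 13 at 34.2 CPM and just below the lowest sham-chow sample at 35.6 CPM.

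Group means were 29.7 ± 2.99 CPM in ORX-HFD, 42.8 ± 4.67 CPM in sham-HFD and 40.5 ± 4.12 CPM in sham-chow pull-downs (SD, n = 7, 6 and 7). The log2 fold change of ORX-HFD over sham-HFD was -0.51 ± 0.09 (SE), so that the fitted level was 70.1% of the sham-HFD level. Leaving out each sample in turn kept it between -0.57 and -0.47, and without the 4 samples rich in Gm42418 it was -0.48. These fits reuse the libraries that chose the gene, so they describe its values and lend no support to an effect. ORX-HFD over sham-chow gave -0.44 ± 0.09, or 73.5% of the chow level. The 2 sham groups differed by 0.07 ± 0.09 in the direction of sham-HFD. These comparisons share libraries and are given side by side without a test. No gene of 14059 passed an adjusted p under 0.05 between ORX-HFD and sham-HFD pull-downs in edgeR (0%), 918 had an unadjusted p under 0.05 (6.53%), and DESeq2 called 11. Between ORX-HFD and sham-chow pull-downs 2 genes passed in edgeR (0.0142%) and 12 in DESeq2. Complete separation in the lower direction, as Cacng4 shows against sham-chow, occurred in 0.107% of genes. Nothing is read from that share, because the ORX-HFD libraries in this comparison had a part in choosing the gene.

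**Figure D3:**
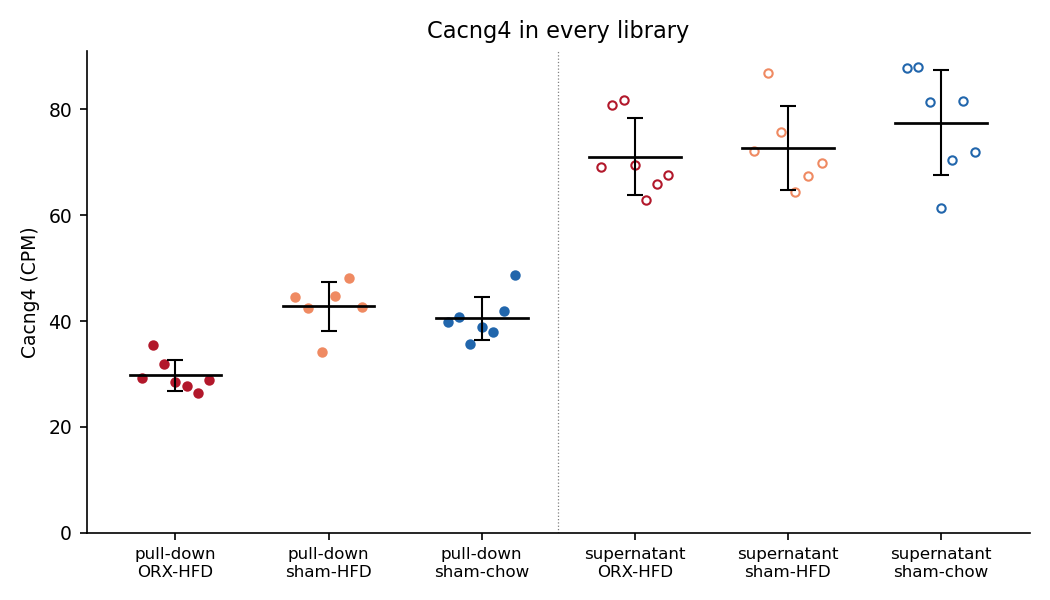
Cacng4 CPM in each of the 40 libraries (points; filled for pull-down, open for supernatant), with mean and SD by group. The ORX-HFD pull-downs span 26.5 to 35.4 CPM, below the sham pull-downs except sham-HFD sample 13 at 34.2 CPM, while the 3 supernatant groups cover one another between 61.3 and 88.0 CPM.

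In the supernatants, which the choice of Cacng4 did not use, the gene did not differ detectably between the groups. The ORX-HFD supernatants had 69.1, 80.9, 81.7, 69.5, 62.8, 65.9 and 67.6 CPM. The sham-HFD supernatants had 72.2, 86.9, 75.8, 64.3, 67.4 and 69.9 CPM. The sham-chow supernatants had 87.8, 88.0, 81.4, 61.3, 70.4, 81.5 and 72.0 CPM. All 3 groups overlapped. The log2 fold change of ORX-HFD over sham-HFD was -0.03 ± 0.10 (edgeR adjusted p = 0.97). ORX-HFD over sham-chow gave -0.14 ± 0.09 (edgeR adjusted p = 0.9999), and sham-HFD over sham-chow gave -0.10 ± 0.10 (edgeR adjusted p = 0.90). In rising order of level came the ORX-HFD pull-downs, the sham-chow and sham-HFD pull-downs, and then the supernatants, at 71.1 ± 7.34 CPM in ORX-HFD, 72.7 ± 7.98 CPM in sham-HFD and 77.5 ± 9.93 CPM in sham-chow. Steps larger than the SD of both neighbours lay between ORX-HFD and sham-chow pull-downs, and between sham-HFD pull-downs and ORX-HFD supernatants. The other neighbours in that order differed by no more than the larger of their SDs.

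Set against its own supernatant level, Cacng4 in the pull-down was fitted at 41.8% of the supernatant level in ORX-HFD (log2 fold change -1.26 ± 0.09), 58.8% in sham-HFD (-0.77 ± 0.10) and 52.3% in sham-chow (-0.94 ± 0.09). Cacng3 and Cacng7 had the same order of groups. Cacng3 stood at 5.34% of its supernatant level in ORX-HFD, 5.67% in sham-HFD and 5.50% in sham-chow, and Cacng7 at 31.8%, 45.8% and 45.0%. The ORX-HFD supernatant level of Cacng7 rests on sample 2. Cacng2 (4.33%, 4.12% and 4.37%), Cacng5 (27.2%, 23.9% and 25.1%) and Cacng8 (125%, 108% and 161%) had their lowest value in sham-HFD. These differences between treatments were not tested.

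Several marker lists were looked at beside the Cacng4 values. In the pull-downs the 5 endothelial markers summed to 175 to 930 CPM (median 267) in ORX-HFD, 136 to 637 CPM (median 172) in sham-HFD and 116 to 464 CPM (median 151) in sham-chow. The 6 tanycyte and ependymal markers summed to 37.1 to 44.6 CPM in ORX-HFD, 28.6 to 35.8 CPM in sham-HFD and 33.8 to 44.0 CPM in sham-chow. Only 3 of these 6 passed the filter on low counts in the pull-downs. Between ORX-HFD and sham-HFD edgeR called 0 of the 3, where it called 0% of all genes, and the sum itself was not tested. The 5 oligodendrocyte precursor markers summed to 29.4 to 178 CPM (median 44.3) in ORX-HFD, 28.7 to 109 CPM (median 41.4) in sham-HFD and 23.1 to 86.8 CPM (median 35.3) in sham-chow. Most of that sum was Cspg4, which mural cells also carry (means of 58.7, 39.5 and 36.3 CPM), while Pdgfra averaged 7.66, 7.40 and 6.41 CPM and Gpr17 1.04, 0.959 and 0.607 CPM. No marker of these lists was at 0 throughout a group, and the part of such cells in the Cacng4 values was not tested.

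The other 5 TARP genes had overlapping treatment groups in the pull-down. Cacng2 averaged 13.2 ± 4.60 CPM in ORX-HFD, 12.5 ± 3.51 CPM in sham-HFD and 13.8 ± 5.74 CPM in sham-chow (SD, n = 7, 6 and 7). Cacng3 averaged 1.47 ± 0.273, 1.69 ± 0.227 and 1.71 ± 0.788 CPM in the same order, resting on 10 to 40 counts per library. For both genes the means differed by less than the spread between samples. The log2 fold changes of ORX-HFD over sham-HFD were 0.09 ± 0.27 for Cacng2 and -0.19 ± 0.27 for Cacng3.

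Cacng8 averaged 4.54 ± 1.42 CPM in ORX-HFD, 4.89 ± 1.03 CPM in sham-HFD and 5.80 ± 1.09 CPM in sham-chow pull-downs. Its log2 fold change was -0.09 ± 0.21 for ORX-HFD over sham-HFD and -0.35 ± 0.20 for ORX-HFD over sham-chow. Cacng7 averaged 3.01 ± 0.386, 3.18 ± 1.52 and 3.04 ± 1.34 CPM in ORX-HFD, sham-HFD and sham-chow pull-downs. Cacng5 averaged 5.04 ± 2.52, 4.96 ± 1.10 and 4.62 ± 1.59 CPM. The ORX-HFD mean of Cacng5 rests on sample 22, which had 10.3 CPM where the other 6 had 2.96 to 5.80 CPM. Without it the log2 fold change of ORX-HFD over sham-HFD was -0.25, against 0.02 with it.

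In sham pull-downs none of these 5 genes differed detectably between the diets. The log2 fold changes of sham-HFD over sham-chow ran from -0.26 ± 0.21 (Cacng8) to 0.09 ± 0.27 (Cacng5), each with an edgeR adjusted p of 0.9999. The test called 0 of these 5, where it called 0% of all genes and 240 genes (1.71%) had an unadjusted p under 0.05. Whether the diet difference differs between fractions was tested as an interaction on all 40 libraries. Cacng8 had the largest such value of the 5, -0.58 ± 0.27 with an unadjusted p of 0.037, which did not survive adjustment (edgeR adjusted p = 0.97), where 0% of genes passed and 399 genes (2.55%) had an unadjusted p under 0.05. Its sham-HFD levels were 4.89 CPM in pull-downs and 4.53 CPM in supernatants, and its sham-chow levels 5.80 and 3.59 CPM.

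In the supernatants 0 of 6 members passed in any of the 3 treatment comparisons by edgeR, DESeq2 or limma voom, and 0 of 6 had an unadjusted p under 0.05 in edgeR. Of all 14628 genes 0% passed in each comparison, and 3%, 2.26% and 1.41% had an unadjusted p under 0.05 for ORX-HFD over sham-HFD, ORX-HFD over sham-chow and sham-HFD over sham-chow. Cacng2 averaged 306 ± 43.5 CPM in ORX-HFD, 303 ± 46.8 CPM in sham-HFD and 317 ± 38.3 CPM in sham-chow, with log2 fold changes from -0.08 to 0.01. Cacng3 averaged 27.7 ± 3.52, 30.2 ± 6.08 and 30.8 ± 5.93 CPM in the same groups. Cacng8 averaged 3.62 ± 0.714, 4.53 ± 0.967 and 3.59 ± 0.641 CPM. The Cacng8 value for ORX-HFD over sham-HFD was -0.32 ± 0.17 (edgeR adjusted p = 0.95) and that for sham-HFD over sham-chow 0.32 ± 0.17 (edgeR adjusted p = 0.90).

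The type II genes in the supernatants each had 1 sample that stood apart, for Cacng5 sham-chow sample 7 at 23.6 CPM. Cacng5 averaged 18.1 ± 1.97 CPM in ORX-HFD, 20.7 ± 2.25 CPM in sham-HFD and 18.4 ± 2.53 CPM in sham-chow, and 4 of the 7 ORX-HFD values lay below every sham-HFD value. Its log2 fold change of ORX-HFD over sham-HFD was -0.19 ± 0.10 (edgeR adjusted p = 0.95). Cacng7 averaged 9.51 ± 7.76 CPM in ORX-HFD, 6.88 ± 1.94 CPM in sham-HFD and 6.74 ± 1.9 CPM in sham-chow. Its ORX-HFD mean rests on sample 2 with 26.7 CPM (302 counts), where the other 6 had 4.61 to 9.92 CPM. The log2 fold change of ORX-HFD over sham-HFD was 0.47 ± 0.34 with that sample (edgeR adjusted p = 0.95) and -0.04 without it. Against sham-chow it was 0.49 ± 0.32 (edgeR adjusted p = 0.9999) and -0.03 without it. The pull-down of the same sample number had 3.27 CPM, within the range of its group.

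**Figure D4:**
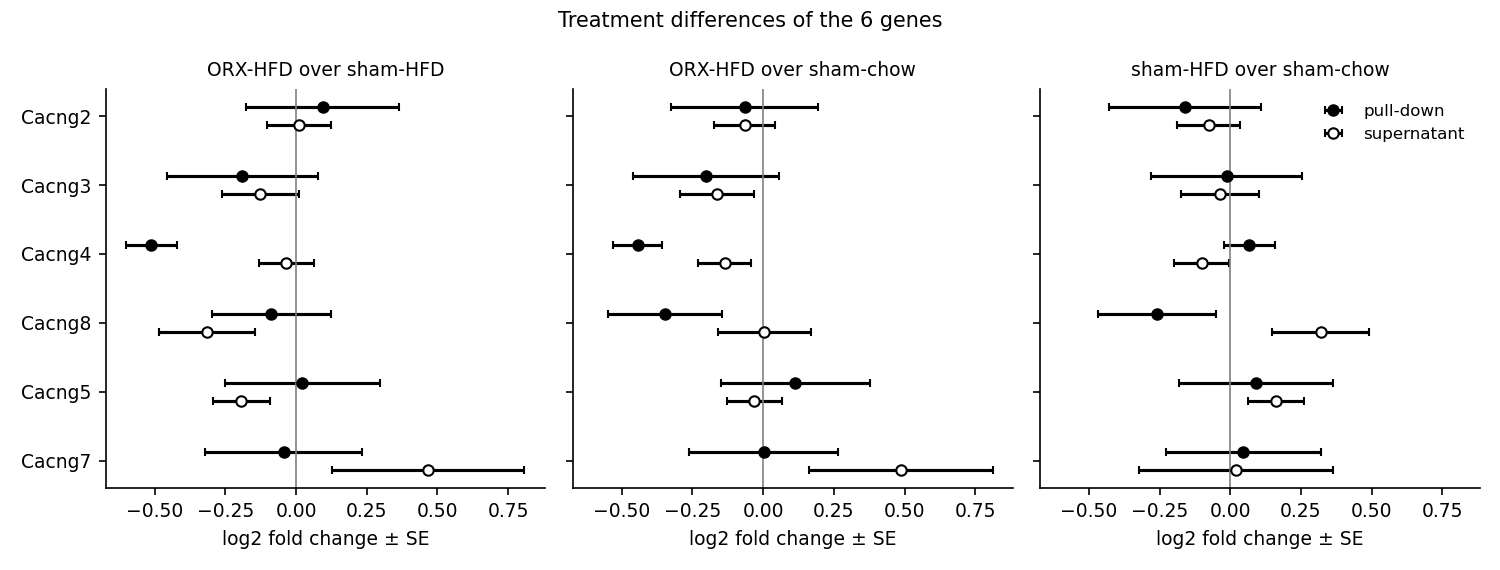
Log2 fold changes (± SE) of the 6 TARP genes for ORX-HFD over sham-HFD, ORX-HFD over sham-chow and sham-HFD over sham-chow, filled for pull-downs and open for supernatants. Cacng4 in the pull-down stands at -0.51 and -0.44 in both ORX-HFD panels, where its supernatant values are -0.03 and -0.14; the Cacng7 supernatant values of 0.47 and 0.49 rest on sample 2.

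The other genes of AMPA receptor biology were mostly lower in the pull-down too. Of 32 listed genes, 30 were tested, and the skeletal muscle channel subunit Cacng1 and its relative Cacng6 fell below the filter. In edgeR 24 of the 30 were lower, where 43.7% of all genes were, 4 were higher (43.1% of all genes) and 2 were not called. The 30 genes had a median log2 fold change of -2.19. The median of the 6 TARPs, -1.65, and that of all genes, -0.01, are on the same scale. Among the pore subunits, Gria3 (-2.85 ± 0.12) and Gria2 (-2.15 ± 0.10), which encodes the subunit that limits calcium entry, were lower, as was Gria4 (-0.84 ± 0.14). Gria1 was higher, at 1.94 ± 0.09 (edgeR adjusted p = 1.1e-23). Gria1 had 660 to 1169 CPM in pull-downs, against 177 to 348 CPM in supernatants, and Gria2 had 35.5 to 89.8 CPM in pull-downs, against 118 to 272 CPM in supernatants.

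The other auxiliary subunits divided as well. Counts by role in this paragraph stand beside 43.7% of all genes called lower and 43.1% called higher. The cornichons Cnih2 (-4.36 ± 0.15) and Cnih3 (-3.40 ± 0.16) and the claudin relative Gsg1l (-2.92 ± 0.14), all of which bind the receptor alongside or in place of TARPs, were lower in the pull-down. Of the 9 genes in that role 7 were lower, Shisa9 was higher (1.21 ± 0.08) and Shisa6 (-0.17 ± 0.10, edgeR adjusted p = 0.10) was not called, though it was called lower under 5 of 9 alternatives. Shisa9, chosen here after its value was seen, encodes the auxiliary protein CKAMP44 and had 53.2 to 75.1 CPM in pull-downs, against 18.8 to 38.8 CPM in supernatants. In receptor assembly, Frrs1l (-3.27 ± 0.11) and the phosphatase Sacm1l (-0.66 ± 0.07) were lower and Abhd6, a monoacylglycerol lipase that also restrains AMPA receptor delivery, was higher (1.47 ± 0.10). Of the 6 genes in that role 4 were lower and 2 higher, the second being Porcn at 0.40 ± 0.07, which fell to 0.03 with totals taken without mitochondrial genes and Gm42418.

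Scaffold and trafficking genes were lower with 1 exception that was not called. Dlg2, a relative of PSD-95, stood at -2.56 ± 0.10, the ATPase Nsf at -2.55 ± 0.07 and the PDZ protein Grip1 at -2.36 ± 0.11. In that role 7 of 8 genes passed, all of them lower. Of all genes 86.8% passed and 43.7% were called lower. In the authors' second table Dlg2 was not called, at -0.38 (limma adjusted p = 0.29), and Dlg4 stood at -0.0025. The exception was Dlg1 (0.11 ± 0.05, edgeR adjusted p = 0.065), which was called higher by limma voom (0.12, adjusted p = 0.043) and with no filter on low counts (0.17, edgeR adjusted p = 0.012), and lower, at -0.26 (edgeR adjusted p = 1.9e-05), with totals taken without mitochondrial genes and Gm42418. The pentraxins Nptx1 (-3.41 ± 0.14), Nptx2 (-3.32 ± 0.15) and Nptxr (-3.08 ± 0.15), secreted or membrane proteins that gather AMPA receptors at synapses, were lower in 3 of 3 cases.

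**Figure D5:**
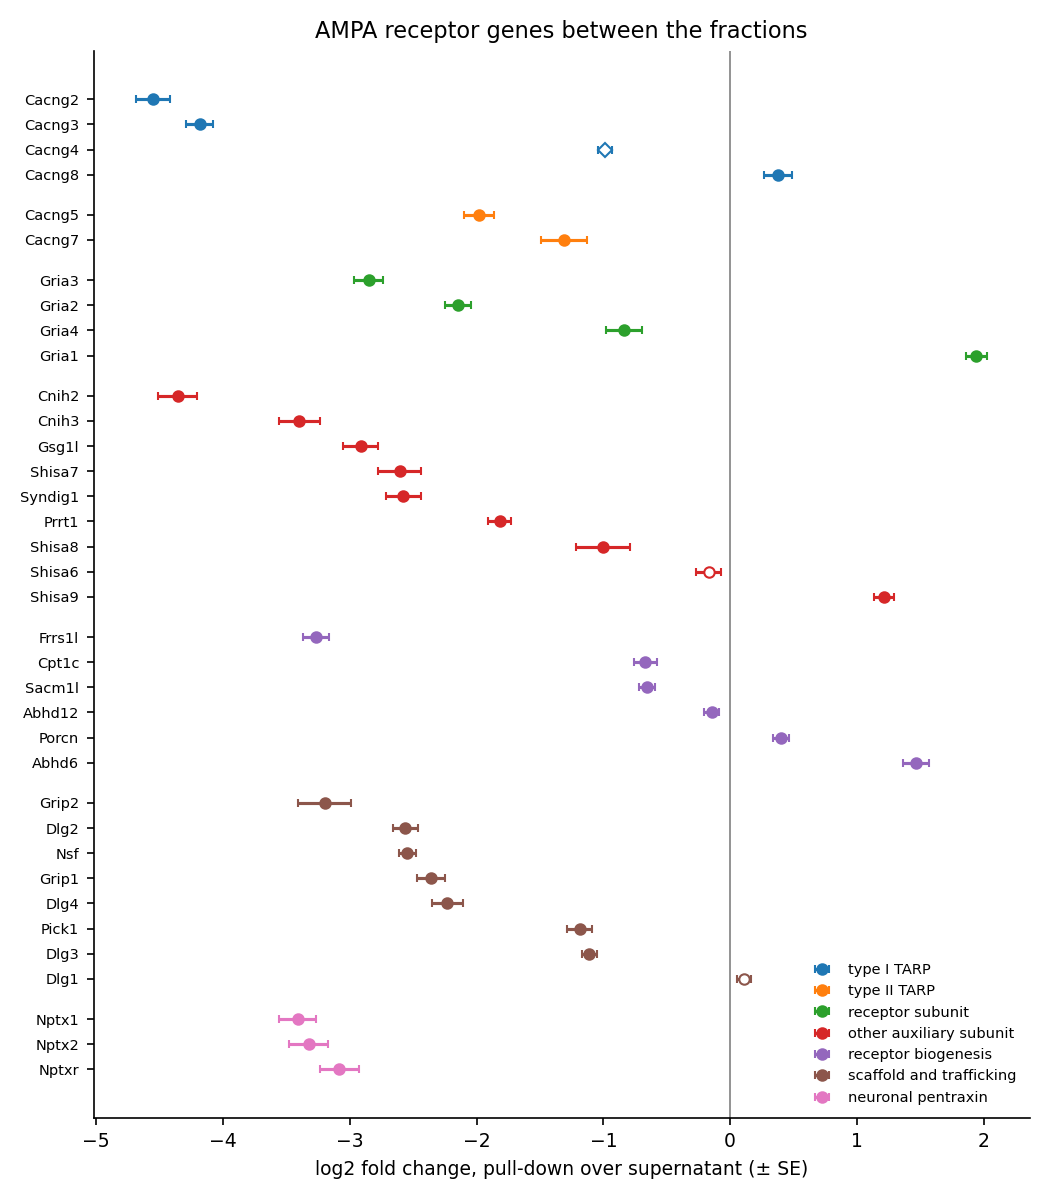
Log2 fold change of pull-down over supernatant (± SE, all 40 libraries) for the 6 TARP genes and 30 other AMPA receptor genes, coloured by role, filled where the edgeR adjusted p is under 0.05; Cacng4, a diamond, is given without a test. Most points lie left of 0, with Cacng2 and Cnih2 farthest at -4.55 and -4.36, and Gria1, Abhd6 and Shisa9 lie right of it at 1.94, 1.47 and 1.21.

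In the treatment comparisons these 30 genes gave no call in edgeR in either fraction. Between ORX-HFD and sham-HFD pull-downs 1 of 30 had an unadjusted p under 0.05, where 6.53% of all genes did, Dlg3 at -0.23 ± 0.10, and 16 values were positive and 14 negative, with a median of 0.03. Gria1, the subunit at the highest pull-down level, averaged 956 ± 181 CPM in ORX-HFD, 1032 ± 185 CPM in sham-HFD and 1004 ± 172 CPM in sham-chow pull-downs, which differ by less than their spread. Between ORX-HFD and sham-HFD supernatants 2 of 30 had an unadjusted p under 0.05, where 3% of all genes did. Between ORX-HFD and sham-chow the counts were 4 in pull-downs, where 11.1% of all genes had such a p, and 0 in supernatants (2.26% of all genes). Between sham-HFD and sham-chow they were 1 in pull-downs (1.71% of all genes) and 0 in supernatants (1.41%). DESeq2 and limma voom were run on all genes, but their treatment results for these 30 were not looked at separately.

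The genes whose pattern over the 40 libraries came closest to that of Cacng4 were not other TARPs. Likeness was the mean absolute difference of log2 CPM after each gene was centred on its own mean, over 10896 genes with a mean of at least 5 CPM. All libraries of a fraction share the pull-down step, so most of that likeness is the distance between the fractions. The closest were Zcrb1 (0.15), Zc3h15 (0.16), Zcchc17 (0.16), the glutamate delta receptor gene Grid1 (0.17) and the heat shock protein gene Hsp90ab1 (0.18), and the median over all genes was 0.69. Zcrb1 averaged 69.0 CPM in ORX-HFD, 77.9 CPM in sham-HFD and 74.5 CPM in sham-chow pull-downs, against 146, 144 and 148 CPM in the supernatants. Grid1 averaged 26.6, 29.97 and 28.6 CPM in the pull-downs, against 56.4, 62.2 and 61.6 CPM in the supernatants. Among the TARPs, Cacng7 stood at 0.38, Cacng5 at 0.52, Cacng3 at 1.43 and Cacng2 at 1.79, and Cacng8 had too low a mean to enter.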

How the data were processed

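Messenger RNA was measured in 20 pull-down and 20 supernatant libraries. Dynabeads captured polyadenylated RNA and QuantSeq 3′ FWD libraries were made from it, per the labels' protocols. Per the submitters' processing notes, Trim Galore 0.6.4, Salmon 1.9.0 and the build GRCm38 were used; annotation, strand setting and gene summing are not given there. The authors deposited estimated counts for 26792 symbols, of which 12.7% of non-zero values are not whole. A second deposited table holds a scaled signal with column sums of 847343 to 1025290. For all 6 members it equals the counts up to 1 scale factor for each library (tolerance 0.01 counts), and it served only as an alternative.

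Counts were rounded and tested with edgeR 4.0.16 (R 4.3.3): TMM scaling, filterByExpr with a minimum count of 10, robust quasi-likelihood F test, Benjamini-Hochberg adjustment over all genes tested, threshold 0.05. Pull-downs and supernatants were fitted apart (3 group means each), and the fractions were compared in 1 fit of 40 libraries (6 group means). SE is the log2 fold change over the root of F. CPM use TMM factors over all 40 libraries, and errors on CPM are SD. Replicates were compared before averaging, and no 2 libraries agreed within sampling noise (lowest chi-square per degree of freedom within a group 4.35). The tests were checked on simulated data. Alternatives were DESeq2 1.42.0, limma 3.58.1 (voom, and a trend fit on log2 of the second table plus 1), other scalings, no filter, leaving out samples, and the sample number as a block.

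The members and gene lists were chosen with earlier results of these data known. All 6 members were named in every comparison; of the other AMPA receptor genes, counts and up to 3 per role with the smallest p between the fractions; and the 5 genes most like Cacng4. Sequences and positions are from GENCODE M21. Depth limits the low members most: Cacng3 had 10 to 40 counts per pull-down. Tags carry no molecular identifiers known here, so PCR copies are counted as molecules.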

Additional observations from a re-analysis of the deposited data

Results flagged for a closer look

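Of 36 groups of 6 or 7 samples (6 genes in 6 groups), 3 held a sample that stood apart from the others by Dixon's criterion, which chance gives in about 1 in 20 groups. Cacng5 read 10.3 CPM in the pull-down of ORX-HFD sample 22, where the other 6 samples had 2.96 to 5.80 CPM. That pull-down also had over 10% of its counts in Gm42418. Cacng5 read 23.6 CPM in the supernatant of sham-chow sample 7, where the other 6 had 15.9 to 19.1 CPM. Cacng7 read 26.7 CPM in the supernatant of ORX-HFD sample 2, where the other 6 had 4.61 to 9.92 CPM. Cacng4 had no such sample in any group.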

How the results depend on the processing

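Of 378 values of the 6 members under 9 alternatives, 377 were scored as unchanged. Tested values had to keep their direction and side of the threshold or stay uncalled. Values given without a test had to move by less than the SD between samples, whatever their sign. The exception was Cacng8 between the fractions, at 0.0028 with totals taken without mitochondrial genes and Gm42418. All 960 values with 1 sample left out were scored as unchanged too. Among tested values past the threshold in neither fit, 63 changed sign, and untested values that changed sign are not in that number. Such changes occurred for ORX-HFD over sham-HFD pull-downs without the 4 Gm42418-rich samples. There Cacng5 went from 0.02 to -0.26, Cacng7 from -0.04 to 0.24 and Cacng8 from -0.09 to 0.06. The 5 members other than Cacng4 passed between the fractions in every fit with 1 sample left out. Counts of called genes moved in comparisons with few calls. For ORX-HFD against sham-HFD pull-downs edgeR called 0, DESeq2 11, library totals 1 and the fit without the 4 Gm42418-rich samples 4, and 0 to 5 with 1 sample left out (5 without sample 1). For ORX-HFD against sham-chow pull-downs edgeR called 2, DESeq2 12 and voom 1, and 2 to 4 with 1 sample left out (4 without sample 6). In supernatants DESeq2 called 3 for ORX-HFD against sham-HFD and 1 for ORX-HFD against sham-chow (edgeR 0, and 0 to 2 with 1 sample left out, 2 without sample 7), and for the diet interaction 4 (edgeR 0). The cause was not tested. Between the fractions 13399 to 13633 genes were called with 1 sample left out.

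With the sample number as a replicate block, Cacng4 stood at -0.98 and Cacng8 at 0.36 between the fractions and no member's call changed, while Dlg1 was called higher (0.11, edgeR adjusted p = 0.044). Whether the numbers pair the libraries stays undecided, and the main fit treated the libraries as unpaired. Over 20 pairs the correlation of deviations ran from -0.16 to 0.24 (median 0.03), and 6 were over 0.1. Of the 20 pull-downs 7 correlated best with their own number, out of the 6 or 7 supernatants of their group. How many would do so by chance was not worked out.

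Among the other AMPA receptor genes, Shisa6, Porcn, Abhd12, Dlg1, Dlg2 and Dlg4 changed side under at least 1 alternative, and Shisa6 was called lower in 5 of the alternatives. Low counts limit Cacng3, Cacng7 and Cacng8 most.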
